A study of Mus musculus with 50 samples.

Results

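β-catenin was depleted with a short hairpin (shBcat) in mouse epiblast-like cells (epiLC), and expression at 96 h was set against control epiLC of the same time. The members were chosen by label: 2 shBcat libraries and 2 control libraries at 96 h, 4 of the 50 samples of the series. Of the 55421 genes listed for them, 15304 reached 1 TPM (RSEM's transcript abundance, corrected for length and scaled so that every library has an equal sum) in at least 2 libraries of the table and were tested. All were V6.5 cells, a mouse embryonic stem (ES) cell line, placed in epiLC medium, and RNA was extracted with TRIzol. The shBcat groups were sampled at 24, 48 and 96 h (n = 2 each) and the control group at 96 h (n = 2). The control labels name no hairpin, so the delivery of a hairpin and the loss of β-catenin cannot be told apart. The labels do not say how the hairpin was delivered or when, nor whether the replicates were separate cultures. The p-values below therefore describe variation among libraries, part of which may be technical.

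β-catenin has a double role. At the membrane it links classical cadherins to α-catenin and the actin cytoskeleton. In the cytoplasm it is marked for destruction by a complex of Axin, APC, GSK3 and casein kinase, and Wnt ligands block that complex, so that β-catenin enters the nucleus and joins Tcf and Lef proteins at their target genes. EpiLC form when ES cells leave the naive state, and they resemble the early post-implantation epiblast, in which Wnt signals start the primitive streak.

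Depth was unknown, since TPM keep no record of it. Between 13924 and 14485 genes reached 1 TPM per library. The median absolute log2 difference between replicates was 0.119 for shBcat and 0.104 for control libraries at 96 h, and 0.0693 and 0.0712 for shBcat at 24 and 48 h. All these pairs entered the estimate of spread, so that spread may be too small for the 96 h groups. Nuclear-genome levels share their total with mitochondrial transcripts, which made up 4.87% and 4.76% of the values in shBcat libraries at 96 h, against 3.91% and 3.83% in control libraries. The epiLC label was checked against markers: Fgf5, Otx2, Dnmt3b and Pou3f1 together had 148 and 163 TPM in shBcat libraries, against 144 and 149.5 TPM in control libraries. Naive markers were not at 0. Nanog, Esrrb, Klf4, Tfcp2l1 and Zfp42 summed to 202 and 182 TPM in shBcat libraries, against 203 and 201 TPM in control libraries, most of it Nanog. Summed markers of endoderm, trophoblast and fibroblasts were between 6.79 and 17.3 TPM in each of the 4 libraries, and the groups overlapped for trophoblast. In such bulk samples, fewer cells of a type and less RNA per cell cannot be told apart.

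Ctnnb1, which encodes β-catenin, had 145 and 142 TPM in shBcat libraries at 96 h, against 448 and 441 TPM in control libraries. The groups lay far apart, and the shBcat mean was 0.323 of the control mean (log2 change −1.62, SE 0.04, limma adjusted p = 5.74e-06). In the shBcat series Ctnnb1 stood at 94.9 and 94.5 TPM at 24 h and 107 and 103 TPM at 48 h, so its level at 96 h lay above both earlier times. Plakoglobin, encoded by Jup and the closest relative of β-catenin, had 39.6 and 46.8 TPM in shBcat libraries, against 41.7 and 46.8 TPM in control libraries, with overlapping groups (log2 change −0.04, limma adjusted p = 0.889).

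Among all genes tested, 350 rose (2.29%) and 388 fell (2.54%), 738 in all (4.82%) at a Benjamini-Hochberg adjusted p under 0.05. Without adjustment, 3056 genes (20%) had a p under 0.05, of which 1357 were higher (8.87% of all) and 1699 lower (11.1%), and counts of a list at an unadjusted p are to be read against these shares. Few changes were large: 16 of the genes that rose and 28 of those that fell passed a log2 change of 1. The median log2 change over all genes was −0.01. The 2 shBcat libraries both lay outside the range of the control libraries at 6880 genes (45%), so separation of the groups at a gene is common in these data. The 15 largest falls by the naming rule were those of Ndufa4l2, Ndrg1, Aldoc, Egln3, Bnip3, Ctnnb1, Egr1, Loxl2, Krt19, Anxa2, Isg15, Ankrd37, Espn, Fgf8 and Ldha. The largest rises included Spp1, Atf5, Nupr1, Trib3, Chac1, Cth, Ddit3, Zfp978, Rex2, Mid1, Apela, Zfp988, Zfp980 and Platr10. Each gene named here kept an adjusted p under 0.05 when any of the 4 libraries at 96 h was left out, although the count over all genes then lay between 279 (without control replicate 2) and 453 (without shBcat replicate 2), and was 410 without shBcat replicate 1 and 368 without control replicate 1.

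**Figure D1:**
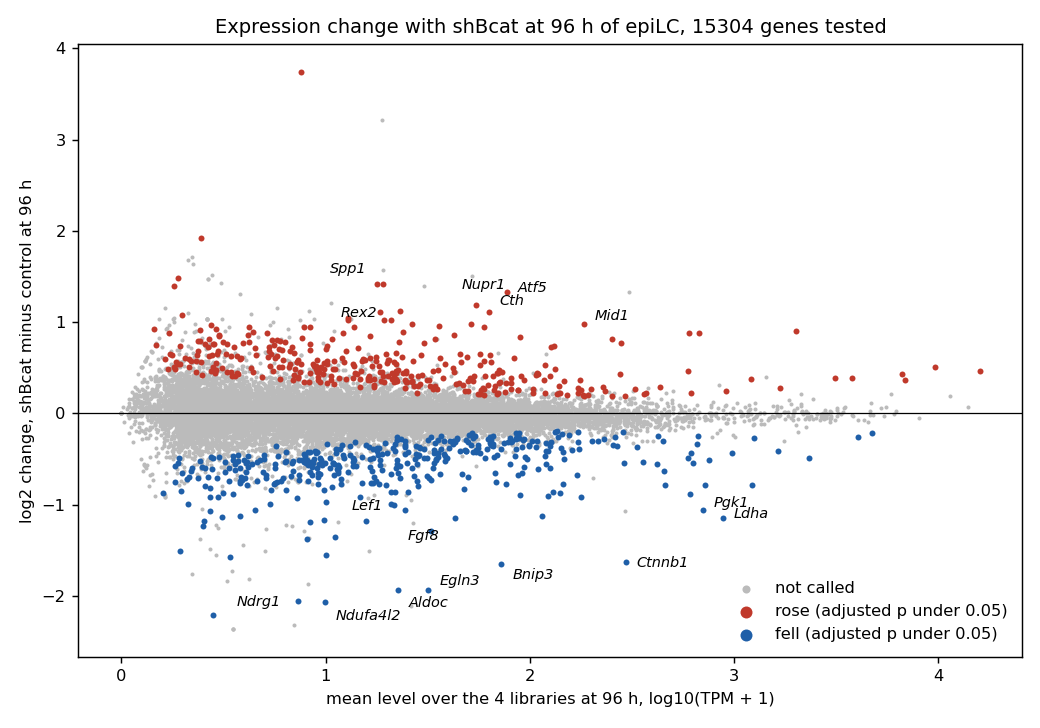
Each point is 1 of 15304 tested genes, with its mean level over the 4 libraries at 96 h as log10(TPM + 1) on the horizontal axis and its log2 change, shBcat minus control, on the vertical axis; red genes rose, blue genes fell and grey genes were not called. Ctnnb1, at −1.62, is accompanied below −1 by Egln3, Aldoc, Bnip3 and Ldha, while Spp1, Atf5, Nupr1 and Cth lie above 1.

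The Wnt pathway itself was changed at few genes. In the list of catenins and the destruction complex, Ctnnb1 was the 1 member of 18 tested that fell and 0 rose by limma, with 3 of 18 lower and 0 higher at an unadjusted p under 0.05, near the share over all genes in either direction. Axin1, the scaffold of the complex, had 29.5 and 35.6 TPM in shBcat libraries, against 40.1 and 41.1 TPM in control libraries, and did not pass (limma adjusted p = 0.0909). Of the frizzled, LRP, ROR and LGR receptors and partners, 0 of 19 were called by limma (5 at an unadjusted p under 0.05, 4 of them lower, against 20% of all genes). Without shBcat replicate 2, 2 of the receptors fell.

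Among 9 tested ligand genes and genes for ligand release, Wnt8a was called. Wnt8a, a ligand of the posterior epiblast and early streak, had 49.8 and 53.6 TPM in shBcat libraries, against 82.3 and 81.2 TPM in control libraries, and the groups did not overlap (log2 change −0.65, SE 0.07, limma adjusted p = 0.00199). In the shBcat series it was lower earlier, at 11.6 and 12.1 TPM at 24 h and 38.2 and 34.6 TPM at 48 h. Wnt3, the ligand that initiates the streak in the embryo, was at 2.30 and 2.86 TPM in shBcat libraries, against 3.91 and 3.62 TPM in control libraries (limma adjusted p = 0.0934). Sost, a secreted antagonist, fell to 2.83 and 3.07 TPM in shBcat libraries, against 4.96 and 5.65 TPM in control libraries (log2 change −0.67, limma adjusted p = 0.0109), but had an adjusted p of 0.0626 without shBcat replicate 1 and 0.0812 without control replicate 2.

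Of 16 tested genes for Tcf and Lef proteins and their nuclear partners, Lef1 fell and 0 rose (3 lower and 0 higher at an unadjusted p under 0.05, again near the share over all genes). Lef1, which encodes the family member most often linked to activation, had 12.4 and 16.6 TPM in shBcat libraries, against 25.6 and 28.5 TPM in control libraries (log2 change −0.86, SE 0.12, limma adjusted p = 0.00766), and its adjusted p was 0.0542 without control replicate 2. Its level at 24 h of shBcat (28.8 and 30.4 TPM) and at 48 h (28.1 and 28.4 TPM) was near that of control epiLC at 96 h. Tcf7 had 23.4 and 25.1 TPM in shBcat libraries, against 28.5 and 28.5 TPM in control libraries, without a call (adjusted p = 0.0733). Tcf7l1, a repressor that holds Wnt targets down in ES cells, had 35.4 and 42.4 TPM in shBcat libraries, against 42.0 and 47.0 TPM in control libraries, with overlap between groups (adjusted p = 0.316).

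Of 19 tested Wnt target genes 3 fell and 0 rose, against 2.54% of all genes that fell, and 9 had an unadjusted p under 0.05, 6 lower and 3 higher. The 3 that fell were Lef1, T and Cdx2. The 3 higher were Ascl2, Notum and Sp8, with log2 changes of 0.66, 0.55 and 0.46. None of these was called (limma adjusted p = 0.0624, 0.203 and 0.0527). T, the streak and mesoderm factor brachyury, had 1.95 and 1.88 TPM in shBcat libraries, against 4.28 and 3.46 TPM in control libraries (log2 change −0.74, SE 0.14, limma adjusted p = 0.0294). Cdx2, a posterior and trophoblast factor, had 2.14 and 2.47 TPM in shBcat libraries, against 3.44 and 4.19 TPM in control libraries (log2 change −0.54, adjusted p = 0.0456). Leaving out any 1 of the 4 libraries ended both calls, with adjusted p between 0.0656 and 0.136 for T and between 0.0695 and 0.212 for Cdx2. The count of falls in the list was then 1 without shBcat replicate 1, 3 without shBcat replicate 2, 1 without control replicate 1 and 0 without control replicate 2, and it was 0 in a fit of the 96 h libraries alone, 1 without the filter on low values and 1 with a pseudocount of 0.1 in place of 1. The list also held 1 gene that rose without shBcat replicate 1, with that pseudocount, without the variance trend, with a replicate block and with median-of-ratios scaling. Axin2, a feedback target read widely as a Wnt reporter, had 6.56 and 8.09 TPM in shBcat libraries, against 8.39 and 8.78 TPM in control libraries (log2 change −0.21, adjusted p = 0.348).

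Axin2 can be set beside ES cells held in 2i medium, in which a GSK3 inhibitor stabilizes β-catenin. There it had 0.945 and 0.911 FPKM in V6.5 shBcat libraries, against 12.0 to 13 FPKM in the 6 shGFP libraries. Those tables were normalized apart, so the difference between media was not tested. Control epiLC had 5.87 and 5.62 TPM at 24 h and 9.21 and 9.72 TPM at 48 h, in another table, against 21.6 and 23.3 TPM in unmodified 2i cells of that table.

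**Figure D2:**
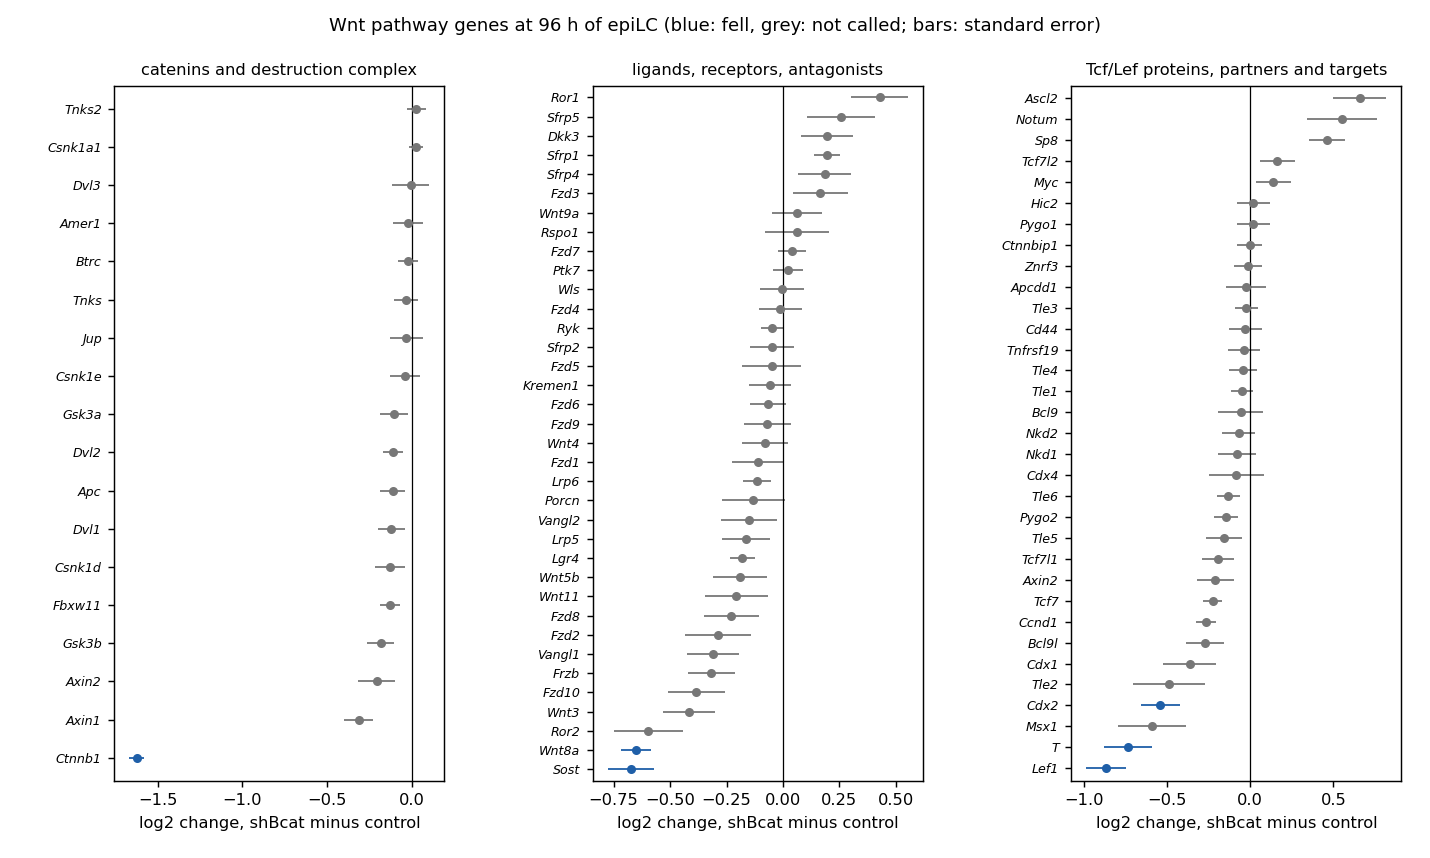
Points give the log2 change, shBcat minus control at 96 h, of each tested member of the Wnt lists, with bars of 1 standard error; blue genes fell and grey genes were not called. Apart from Ctnnb1 at −1.62, the called genes are Wnt8a, Sost, Lef1, T and Cdx2, and the other members are not called.

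The promoters of Lef1, T and Cdx2 (250 bases before to 50 after the start, RefSeq, GRCm38.p6) were searched on both strands for CTTTGAT and CTTTGAA, the core that Tcf and Lef proteins bind. These letters stood in 1 of the 3 genes, T, against 9.88% of the 27025 genes of the table. The promoter of T, chr17:8434173-8434472 on the + strand, is shown with the match in capitals because T is the streak gene among these targets.
T: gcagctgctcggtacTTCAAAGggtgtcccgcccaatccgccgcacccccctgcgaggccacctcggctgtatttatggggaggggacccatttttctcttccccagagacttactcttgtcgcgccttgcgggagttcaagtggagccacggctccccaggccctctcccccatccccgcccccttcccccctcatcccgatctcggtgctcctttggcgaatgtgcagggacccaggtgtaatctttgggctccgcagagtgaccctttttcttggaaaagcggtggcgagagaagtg
None of the 4 listed promoters of Lef1 nor that of Cdx2 held these letters in this window.

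Several genes of the primitive streak and posterior epiblast fell with Wnt8a and T. Of 37 genes in that list 22 were tested, and 6 fell while 0 rose (14 at an unadjusted p under 0.05, 11 of them lower). The median log2 change was −0.34. The 6 were Fgf8, Nkx1-2, T, Fgf17, Wnt8a and Cdx2. Fgf8, a growth factor needed for cells to leave the streak, had 25.0 and 26.3 TPM in shBcat libraries, against 62.3 and 54.3 TPM in control libraries (log2 change −1.15, SE 0.08, limma adjusted p = 0.000485). In the shBcat series it was at 1.98 and 2.15 TPM at 24 h and 7.21 and 7.06 TPM at 48 h. Eomes, a streak and endoderm factor, had 6.72 and 7.58 TPM in shBcat libraries, against 6.66 and 6.99 TPM in control libraries, with no call. The count fell to 3 without shBcat replicate 1 and 2 without control replicate 2, and was 4 without either other library and 3 in a fit of the 96 h libraries alone or without the filter on low values.

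Some neural genes rose in the same libraries. Of 19 tested neuroectoderm genes 4 rose and 0 fell (11 at an unadjusted p under 0.05, 8 of them higher), with a median log2 change of 0.17. Sox1, an early neural plate factor, had 35.7 and 34.7 TPM in shBcat libraries, against 26.3 and 27.7 TPM in control libraries (log2 change 0.37, limma adjusted p = 0.0144). Cdh2, Ncam1 and Fabp7 were the other 3, of which Fabp7 was low, at 0.87 to 1.86 TPM. Nkx6-2, Lhx5 and Nes, named after their values were seen, were lower without a call (log2 changes −0.53, −0.33 and −0.18). Sox1 had an adjusted p of 0.0637 without shBcat replicate 1, 0.0778 without control replicate 1 and 0.0527 without control replicate 2. The list count was 3 without shBcat replicate 1, 1 without shBcat replicate 2, and 0 without either control replicate or with the 96 h libraries alone. Summed neuroectoderm markers (5 genes) were 62.3 and 60.9 TPM in shBcat libraries, against 44.1 and 48.6 TPM in control libraries. Most of each sum was Sox1 and Pax6. Pax6 and Lhx2 were not called, and Hesx1 and Six3 were too low to be tested. The part of these markers in other results was not tested.

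The 4 marker genes of the epiLC state did not pass the test, while other genes of the formative list fell. Fgf5 had 29.5 and 31.8 TPM in shBcat libraries, against 29.4 and 29.3 TPM in control libraries. Otx2 had 8.36 and 9.25 TPM in shBcat libraries, against 8.20 and 10.0 TPM in control libraries. Neither passed, nor did Dnmt3b or Pou3f1. Of 28 tested formative and primed genes 7 fell and 0 rose by limma, with 10 lower and 4 higher at an unadjusted p under 0.05. Crabp1, a retinoic acid binding protein, had 82.2 and 86.3 TPM in shBcat libraries, against 162 and 156 TPM in control libraries (log2 change −0.91, SE 0.07, adjusted p = 0.000605). Cldn6, a tight junction protein, had 32.9 and 33.3 TPM in shBcat libraries, against 58.8 and 60.6 TPM in control libraries (log2 change −0.83, adjusted p = 0.000551). Crabp1 was at 10.3 and 11.6 TPM at 24 h and 12.5 and 11.6 TPM at 48 h of shBcat, while Hmga2, a chromatin protein of the same list, had 7.93 and 7.66 TPM at 24 h, 12.5 and 13 TPM at 48 h, and 59.9 and 63.8 TPM at 96 h, against 84.9 and 77.7 TPM in control libraries. The call of Hmga2 ended without shBcat replicate 1 (adjusted p = 0.0811) and without control replicate 1 (0.0927). The list count was 4 without shBcat replicate 1 or in a fit of the 96 h libraries alone.

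Some pluripotency genes of the earlier state rose. In the naive list 5 of 27 tested genes rose and 0 fell (14 at an unadjusted p under 0.05, 12 of them higher). Dnmt3l, a cofactor of de novo DNA methylation, had 151 and 164 TPM in shBcat libraries, against 93.9 and 95.1 TPM in control libraries (log2 change 0.73, SE 0.06, limma adjusted p = 0.000771). Nr0b1, a nuclear receptor of naive cells, had 2.24 and 2.89 TPM in shBcat libraries, against 1.05 and 1.15 TPM in control libraries. Fbxo15, Lifr and Zfp57 were the others, of which Lifr lost its call when any 1 library was left out and Zfp57 when any other than control replicate 2 was. Nanog, Esrrb, Klf4 and Tfcp2l1 were not called. In the core list 4 of 17 rose (Rex2, Foxd3, Dppa2 and Sox2) and 0 fell, with 7 higher and 0 lower at an unadjusted p under 0.05. Rex2 is a zinc finger gene that is taken up again below with the Zfp genes. Sox2 had 62.1 and 64.8 TPM in shBcat libraries, against 51.2 and 53.1 TPM in control libraries. Foxd3 was low, at 1.28 and 1.77 TPM in shBcat libraries, against 0.70 and 0.83 TPM in control libraries. Both Sox2 and Foxd3 lost their call in 3 of the 4 fits that left out 1 library. The naive count was 3 without shBcat replicate 2 or control replicate 1, and the core count was 2 without shBcat replicate 2 or control replicate 2; fits of the 96 h libraries alone gave 2 naive genes and 1 core gene, and fits without the filter 3 and 2.

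Many genes of glucose metabolism fell. In the list of glycolysis and glucose transport 17 of 26 tested genes fell and 0 rose by limma (21 at an unadjusted p under 0.05, 20 of them lower), with a median log2 change of −0.49. Ldha, which turns pyruvate into lactate, had 544 and 551 TPM in shBcat libraries, against 1207 and 1215 TPM in control libraries (log2 change −1.14, SE 0.04, limma adjusted p = 1.63e-05). Phosphoglycerate kinase, encoded by Pgk1, had 460 and 448 TPM in shBcat libraries, against 932 and 969 TPM in control libraries (log2 change −1.06, SE 0.04). Tpi1, the triose phosphate isomerase, had 437 and 410.0 TPM in shBcat libraries, against 790.0 and 777 TPM in control libraries (log2 change −0.89). Slc2a3, a glucose transporter, had 539 and 523 TPM in shBcat libraries, against 890.3 and 936 TPM in control libraries (log2 change −0.78). No shBcat library overlapped a control library for any of these 4. Aldoc, a brain-type aldolase, showed the largest fall of the list, at 8.71 and 7.91 TPM in shBcat libraries, against 32.7 and 36.7 TPM in control libraries. The count was 15 or 16 when any 1 library was left out and 12 with the 96 h libraries alone. A second gene ID that carries the symbol Aldoa was counted as a member of its own.

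Targets of HIF, the transcription factor stabilized at low oxygen, fell with them: 13 of 18 tested genes fell and 0 rose (15 at an unadjusted p under 0.05, 14 of them lower), with a median log2 change of −0.70, against −0.01 over all genes. Bnip3, a mitophagy receptor, had 32.8 and 35.1 TPM in shBcat libraries, against 108 and 110.3 TPM in control libraries (log2 change −1.65, SE 0.06, limma adjusted p = 2.29e-05). Egln3, a prolyl hydroxylase that marks HIF for destruction, had 13 and 11.4 TPM in shBcat libraries, against 46.3 and 52.8 TPM in control libraries (log2 change −1.94, SE 0.09, adjusted p = 5.88e-05). Ndrg1 had 1.70 and 1.91 TPM in shBcat libraries, against 8.40 and 13.4 TPM in control libraries (log2 change −2.05, SE 0.19). Vegfa, the angiogenic ligand and a member singled out after its values were seen, had 48.4 and 45.8 TPM in shBcat libraries, against 37.7 and 40.2 TPM in control libraries, and was not called (adjusted p = 0.0586). Leaving out any 1 library gave 11 of the HIF targets.

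The shBcat series was low for these genes from 24 h on. Egln3 was at 10.4 and 9.99 TPM at 24 h, 12.5 and 11.8 TPM at 48 h and 13 and 11.4 TPM at 96 h. Ldha was at 455 and 447 TPM at 24 h, 542 and 536 TPM at 48 h and 544 and 551 TPM at 96 h. Control epiLC, measured in another table, had 14.5 and 14.3 TPM of Egln3 at 24 h and 21.3 and 20.5 TPM at 48 h, and 764 and 774 TPM of Ldha at 24 h and 681 and 568 TPM at 48 h, so the 96 h controls stood above the other epiLC groups listed here. No test was made across tables.

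These genes also varied among control cultures of ES cells. In 2i medium the 6 V6.5 shGFP libraries had 5.68 to 40.5 FPKM of Bnip3 and 38.4 to 228 FPKM of Ldha, with replicates 5 and 6 highest and replicates 3 and 4 lowest, and the V6.5 shBcat libraries lay within that range at 15.0 and 14.0 FPKM and 99.2 and 95.7 FPKM. The part of culture state in the change at 96 h was not tested.

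**Figure D3:**
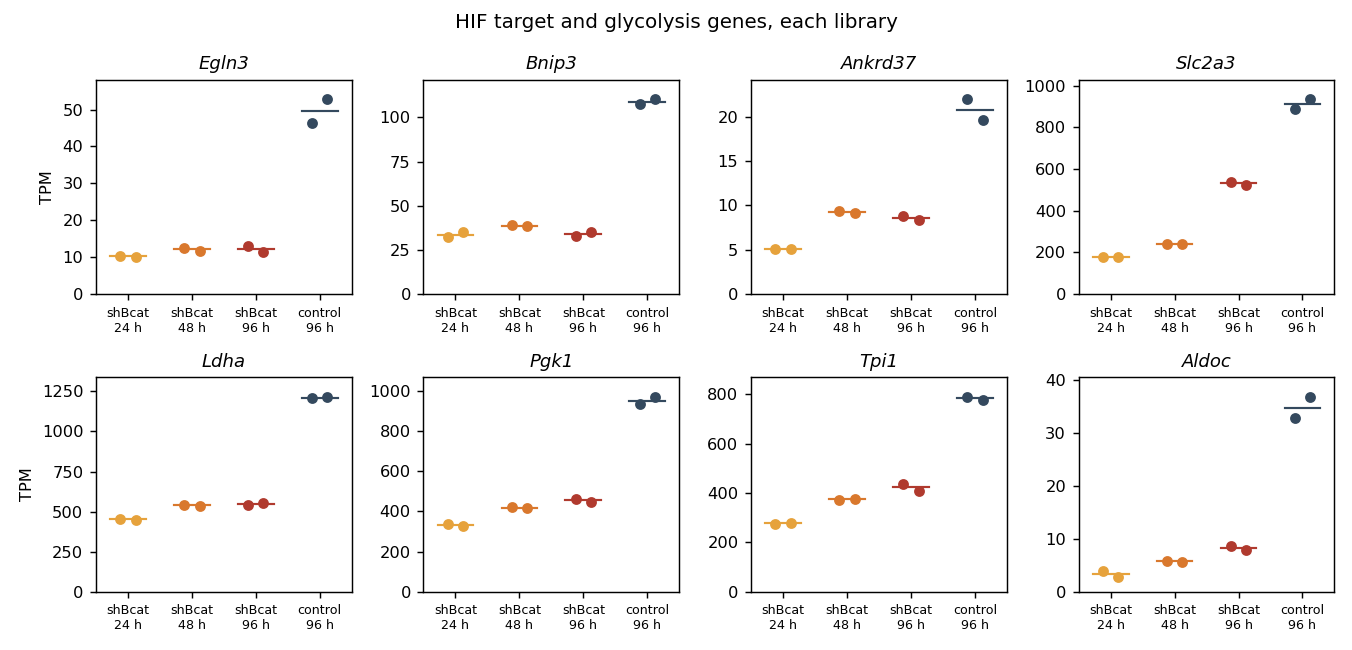
Each panel gives the TPM of 1 gene in every library (points) with the group mean (line): shBcat at 24, 48 and 96 h and control at 96 h, with axes that start at 0. In all 8 panels both control libraries lie above the 6 shBcat libraries; for Ldha they are at 1207 and 1215 TPM, against 551 TPM or less with shBcat.

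The promoters of the 3 glycolysis or HIF genes with the smallest p that have a RefSeq entry, Ldha, Bnip3 and Pgk1, are shown to give the letters of the hypoxia response core, ACGTG or GCGTG on either strand, in capitals. They were chosen after their values were seen. The core stood in 24 of the 26 fallen genes of both lists that had an entry, of 30 in all, against 46.7% of the genes of the table, and CACGTG is read on both strands. The lists were compiled as HIF targets and glycolysis genes, and the share among members that did not fall is not given. The contrast with all genes therefore does not bear on the fall. Ldha has 2 listed promoters, of which the first is shown.
Ldha, chr7:46845554-46845853, + strand: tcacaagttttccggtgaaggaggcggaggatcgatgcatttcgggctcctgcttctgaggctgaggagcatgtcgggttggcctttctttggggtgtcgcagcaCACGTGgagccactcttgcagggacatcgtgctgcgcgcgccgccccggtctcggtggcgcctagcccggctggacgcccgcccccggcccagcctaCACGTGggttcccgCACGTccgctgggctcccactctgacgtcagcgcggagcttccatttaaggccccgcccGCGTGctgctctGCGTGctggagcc
Bnip3, chr7:138909457-138909756, − strand: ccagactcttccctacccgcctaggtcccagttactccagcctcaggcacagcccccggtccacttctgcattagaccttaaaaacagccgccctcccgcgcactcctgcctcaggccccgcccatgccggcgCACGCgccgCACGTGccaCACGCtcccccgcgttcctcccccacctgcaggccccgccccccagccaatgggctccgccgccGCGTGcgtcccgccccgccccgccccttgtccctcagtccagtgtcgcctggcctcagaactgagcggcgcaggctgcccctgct
Pgk1, chrX:106186850-106187149, + strand: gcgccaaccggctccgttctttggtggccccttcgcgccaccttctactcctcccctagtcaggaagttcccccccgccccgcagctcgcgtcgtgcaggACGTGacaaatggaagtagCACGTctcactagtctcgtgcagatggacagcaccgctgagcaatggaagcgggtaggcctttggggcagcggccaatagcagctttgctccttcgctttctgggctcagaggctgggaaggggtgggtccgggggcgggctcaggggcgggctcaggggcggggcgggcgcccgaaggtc
The Ldha window held 7 matches, that of Bnip3 held 5 and that of Pgk1 held 2. A match in these letters is a description of the sequence and does not show that HIF binds there.

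Genes of the integrated stress response rose. ATF4 is a transcription factor whose translation increases when cells are short of amino acids or carry unfolded protein, and it switches on amino acid transport and synthesis. Of 25 tested members of the stress list 14 rose and 1 fell (18 at an unadjusted p under 0.05, 16 of them higher), with a median log2 change of 0.28. Atf5 had 103 and 115 TPM in shBcat libraries, against 38.0 and 47.6 TPM in control libraries (log2 change 1.33, SE 0.10, limma adjusted p = 0.000551). Nupr1, a small stress protein, had 78.3 and 70.6 TPM in shBcat libraries, against 32.7 and 31.5 TPM in control libraries (log2 change 1.19, SE 0.06, adjusted p = 8.13e-05). Cth, the cystathionine gamma-lyase of cysteine synthesis, had 86.8 and 83.0 TPM in shBcat libraries, against 39.2 and 38.4 TPM in control libraries (log2 change 1.11, SE 0.05). Trib3, a pseudokinase that restrains the response, had 29.5 and 31.9 TPM in shBcat libraries, against 12.6 and 14.5 TPM in control libraries (log2 change 1.12, adjusted p = 0.000485). None of these groups overlapped. The count was 8 without control replicate 1 and 7 with the 96 h libraries alone.

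Time did not order the stress genes alike in the shBcat series. Nupr1 was at 232 and 236 TPM at 24 h, 78.6 and 79.7 TPM at 48 h and 78.3 and 70.6 TPM at 96 h, while Atf5 was at 111 and 109.8 TPM, 86.1 and 88.0 TPM, and 103 and 115 TPM. Ddit3, which encodes the factor CHOP, was at 18.9 and 21.3 TPM at 24 h, 7.82 and 9.20 TPM at 48 h and 16.9 and 15.6 TPM at 96 h, against 7.51 and 7.22 TPM in control libraries at 96 h. Ppp1r15a, which restores translation after stress and was singled out after its values were seen, was the member that fell, at 44.4 and 50.5 TPM in shBcat libraries, against 59.6 and 64.4 TPM in control libraries, and was no longer called without shBcat replicate 1 or either control replicate. A second gene ID that carries the symbol Ddit3 was not called.

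The motif TGATGNAA, a core of the C/EBP and ATF composite sites that ATF4 binds, was searched in the promoters of the stress genes that rose. It stood in 6 of the 13 that had an entry, of 14, against 4.51% of the genes of the table. The promoters of Nupr1 and Trib3 are shown with the match in capitals, because they are the 2 of the 3 such genes with the smallest p and an entry that hold it; Atf5, the third of them, holds none in its 2 windows.
Nupr1, chr7:126625421-126625720, − strand: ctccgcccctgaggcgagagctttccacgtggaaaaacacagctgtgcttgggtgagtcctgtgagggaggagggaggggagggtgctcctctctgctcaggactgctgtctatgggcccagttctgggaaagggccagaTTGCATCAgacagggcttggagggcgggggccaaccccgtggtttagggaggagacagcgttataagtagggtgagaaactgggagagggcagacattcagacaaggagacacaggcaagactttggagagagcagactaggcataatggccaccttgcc
Trib3, chr2:152344011-152344310, − strand: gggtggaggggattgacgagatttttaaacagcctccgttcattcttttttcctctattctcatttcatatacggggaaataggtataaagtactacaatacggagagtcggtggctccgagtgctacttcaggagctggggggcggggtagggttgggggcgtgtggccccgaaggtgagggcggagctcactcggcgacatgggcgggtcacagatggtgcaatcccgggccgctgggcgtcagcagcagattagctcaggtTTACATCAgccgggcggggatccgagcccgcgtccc
The entries were chosen after the values were seen, and a match does not show binding. The list was compiled as stress and ATF4 genes, and the share among members that did not rise is not given. The contrast with all genes therefore does not bear on the rise.

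**Figure D4:**
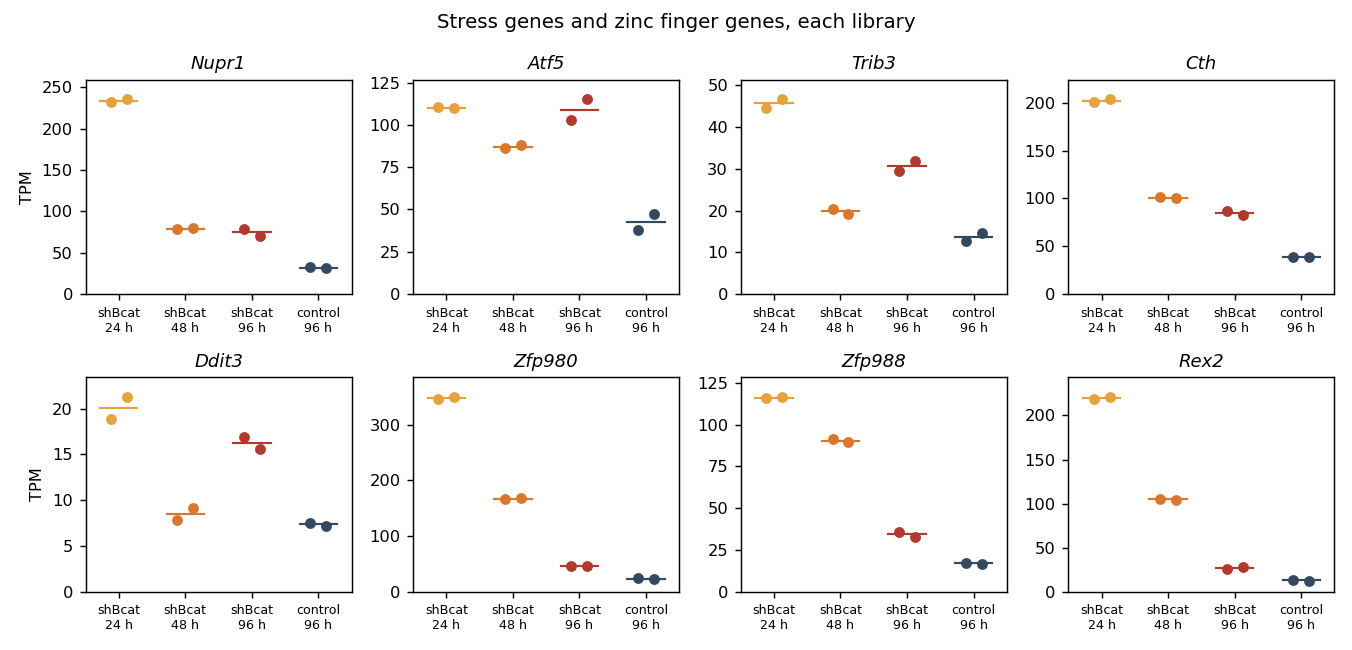
Each panel gives the TPM of 1 gene in every library (points) with the group mean (line): shBcat at 24, 48 and 96 h and control at 96 h, with axes that start at 0. Both shBcat libraries at 96 h lie above both control libraries in all 8 panels, while Zfp980, Zfp988 and Rex2 decline across the shBcat times.

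Some zinc finger genes rose, most of them in 1 interval of chromosome 4. Among genes named Zfp with a number of 3 digits that begins with 5 or above, a list drawn up after such genes appeared among the largest rises, 17 of 187 tested rose (2.29% over all genes), 2 fell and 168 were not called, with a median log2 change of 0.05. Zfp980 had 46.5 and 46.4 TPM in shBcat libraries, against 24.8 and 22.0 TPM in control libraries (log2 change 0.96, SE 0.06, limma adjusted p = 0.000245). Zfp988 had 35.9 and 32.5 TPM in shBcat libraries, against 17.2 and 16.6 TPM in control libraries (log2 change 0.98). Of the 17, 13 lie on chromosome 4 between positions 145510759 and 147702631 (GRCm38.p6), 2 lie on other chromosomes and 2 had no RefSeq position. The interval was set from the positions of these genes, so 13 of the rises counted in it were fixed in advance. In it 37 tested genes had a position, 17 rose, 0 fell and 37 had a higher mean in shBcat libraries, with a median log2 change of 0.53. Over all genes tested 45.8% were higher. Summed over the interval, levels were 1793 and 1484 TPM in shBcat libraries, against 1479 and 1185 TPM in control libraries. Such genes are near-identical copies, so single members are uncertain where reads could be shared between them. The 37 genes may for that reason not be separate observations. With the 96 h libraries alone or without the filter, 11 of the numbered Zfp genes rose.

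Rex2, another zinc finger gene and counted above in the core pluripotency list, had 26.1 and 27.9 TPM in shBcat libraries, against 13.6 and 12.0 TPM in control libraries (log2 change 1.02, SE 0.07, limma adjusted p = 0.000299). The level of these genes declined with time: Zfp980 was at 346 and 350.3 TPM at 24 h of shBcat and 166 and 168 TPM at 48 h, and at 216 and 214 TPM at 24 h and 21.7 and 22.3 TPM at 48 h of control epiLC in another table. Spp1, a secreted glycoprotein among the largest rises by the naming rule, had 25.3 and 24.8 TPM in shBcat libraries, against 9 and 8.46 TPM in control libraries (log2 change 1.42), after 274 and 263 TPM at 24 h and 68.0 and 70.6 TPM at 48 h of shBcat.

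Several epithelial junction genes fell, and 3 genes tied to mesenchyme rose. Of 34 tested cadherin and junction genes 10 fell and 3 rose (20 at an unadjusted p under 0.05, 16 of them lower). Cdh1, which encodes E-cadherin, the membrane partner of β-catenin, had 117 and 125 TPM in shBcat libraries, against 168 and 174 TPM in control libraries (log2 change −0.50, SE 0.05, limma adjusted p = 0.00153). Cldn7 had 20.6 and 18.9 TPM in shBcat libraries, against 34.8 and 35.0 TPM in control libraries. Vim, which encodes the intermediate filament vimentin, had 159 and 168 TPM in shBcat libraries, against 93.2 and 102 TPM in control libraries (log2 change 0.74, SE 0.08, adjusted p = 0.00277). Cdh2, which encodes N-cadherin, had 32.7 and 36.3 TPM in shBcat libraries, against 27.3 and 25.8 TPM in control libraries, with adjusted p between 0.0781 and 0.158 without shBcat replicate 2 or either control replicate, and Zeb1, named after its values were seen, was the third that rose. The fallen count was 6 without shBcat replicate 1 or control replicate 1, 5 without control replicate 2 and 4 with the 96 h libraries alone or without the filter; the count of rises was 1 without shBcat replicate 2 or either control replicate, with the 96 h libraries alone or without the filter.

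Some genes of the FGF and ERK list fell, while most members were not called. In that list 5 of 26 tested genes fell and 0 rose (12 at an unadjusted p under 0.05, 8 lower and 4 higher), with a median log2 change of −0.01. Etv4, Etv5, Spry2, Spry4 and Dusp6, members named after their values were seen, were not called. Their log2 changes lay between −0.04 for Etv4 and 0.27 for Dusp6. Egr1, an immediate early gene, had 3.27 and 5.00 TPM in shBcat libraries, against 12.4 and 15.5 TPM in control libraries (log2 change −1.56, SE 0.17, limma adjusted p = 0.00261). Fos, Ier3 and Fgf15 were the others beside Fgf8. Earlier in the shBcat series Egr1 was at 1.93 and 2.24 TPM at 24 h and 12.3 and 13 TPM at 48 h. Fos was at 0.43 and 0.53 TPM at 24 h and 2.57 and 2.26 TPM at 48 h, against 2.45 and 2.85 TPM in control libraries at 96 h. For both genes the 48 h shBcat level was thus near that of the 96 h controls. Fos had an adjusted p of 0.0538 without shBcat replicate 2 and 0.0760 without control replicate 2, Ier3 missed the threshold when any library other than control replicate 1 was left out, and the count was 3 without control replicate 2 or with the 96 h libraries alone. In the Nodal list Lefty2 had 75.5 and 83.1 TPM in shBcat libraries, against 112 and 113 TPM in control libraries (log2 change −0.50, adjusted p = 0.00359), and Gdf3 rose to 46.5 and 49.8 TPM in shBcat libraries, against 33.2 and 36.8 TPM in control libraries.

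Cholesterol biosynthesis genes fell by small amounts. In that list 13 of 23 tested genes fell and 0 rose (21 at an unadjusted p under 0.05, all of them lower), with a median log2 change of −0.31. Fdps, the farnesyl diphosphate synthase, had 294 and 289 TPM in shBcat libraries, against 409 and 435.5 TPM in control libraries (log2 change −0.53, SE 0.05, limma adjusted p = 0.00199). The count depended on the libraries, at 7 without shBcat replicate 1, 8 without shBcat replicate 2, 5 without control replicate 1, 3 without control replicate 2, 7 with the 96 h libraries alone and 4 without the filter on low values.

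Interferon response genes were lower as well, with 7 of 19 tested that fell and 0 that rose (12 at an unadjusted p under 0.05, all lower). Psmb8, an immunoproteasome subunit, had 14.1 and 12.8 TPM in shBcat libraries, against 28 and 28 TPM in control libraries (log2 change −1.01, SE 0.08, limma adjusted p = 0.000605). Isg15 had 3.66 and 4.56 TPM in shBcat libraries, against 10.7 and 10.7 TPM in control libraries. The count was 4 without shBcat replicate 1, without control replicate 1 or without the filter, 2 without control replicate 2 and 3 with the 96 h libraries alone.

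Some targets of p53 rose, 7 of 20 tested against 0 that fell (11 at an unadjusted p under 0.05, 9 of them higher). Cdkn1a, Bax and Bbc3, named after their values were seen, were not called, with log2 changes of 0.06, 0.01 and 0.02. Sesn1 (−0.25) and Rrm2b (−0.32) were lower without a call. Mdm2, the ligase that degrades p53, had 125 and 118 TPM in shBcat libraries, against 88.1 and 92.9 TPM in control libraries (log2 change 0.42, SE 0.05, limma adjusted p = 0.00452). The count was 4 without shBcat replicate 1, 2 without shBcat replicate 2, 3 without either control replicate or without the filter and 1 with the 96 h libraries alone. Of 28 tested imprinted genes 4 rose and 0 fell, with 8 higher and 7 lower at an unadjusted p under 0.05 and a median log2 change of 0.00; 2 rose and 1 fell without shBcat replicate 2, and 2 rose with the 96 h libraries alone or without the filter. Rian and Impact rose beside H19 and Grb10, but Rian lost its call when any 1 library was left out and Impact without shBcat replicate 2 or control replicate 2. H19, a maternally expressed RNA, had 326 and 378 TPM in shBcat libraries, against 199 and 213 TPM in control libraries (log2 change 0.77, SE 0.08, adjusted p = 0.00194). Grb10, a growth restraining adaptor, had 114 and 114 TPM in shBcat libraries, against 60.8 and 66.1 TPM in control libraries (log2 change 0.83).

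**Figure D5:**
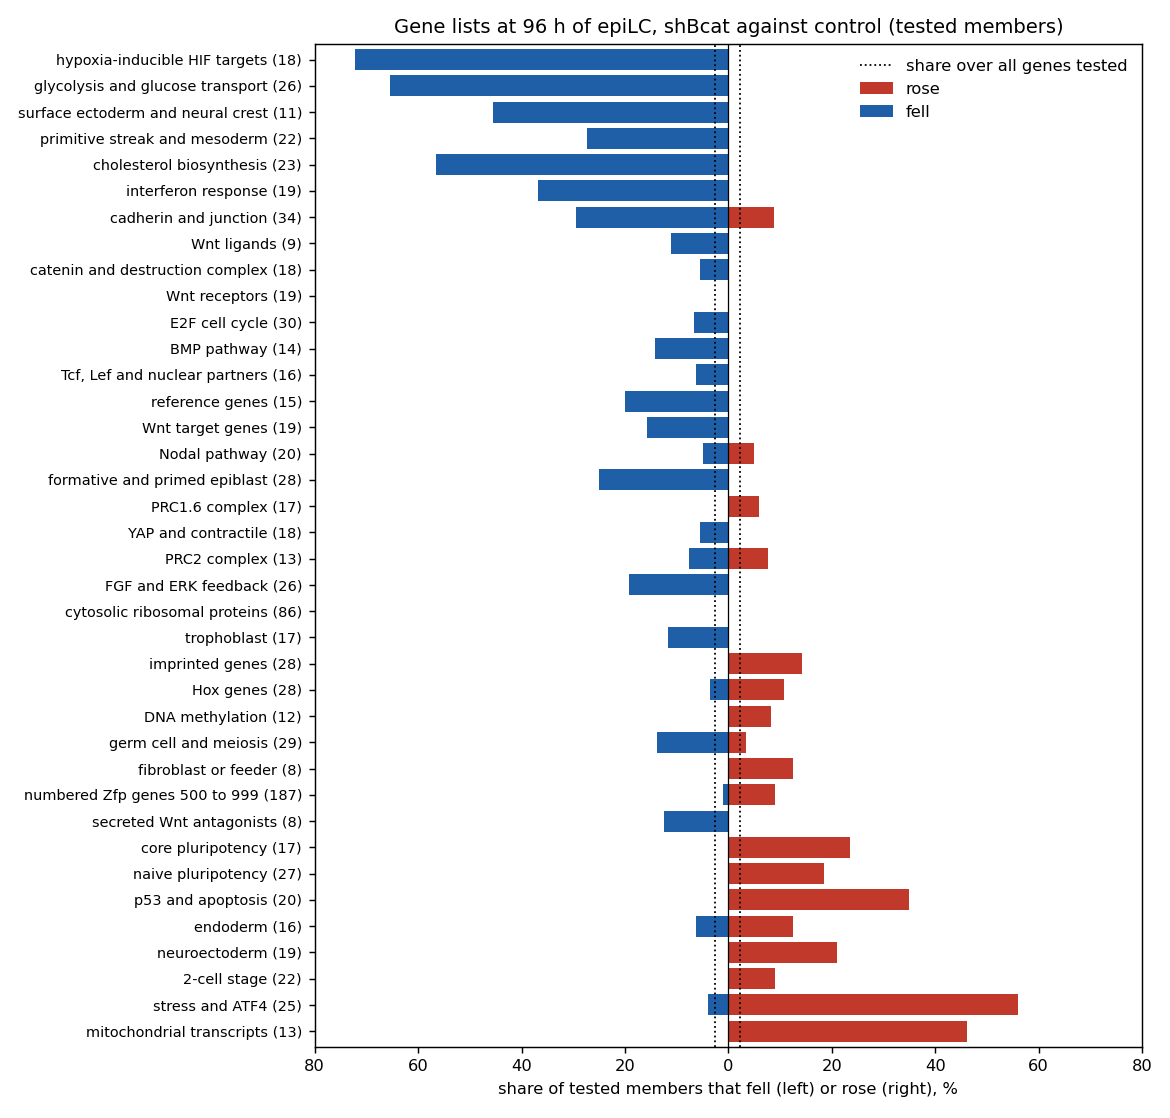
Bars give the share of tested members of each gene list that fell (blue, left) or rose (red, right) with shBcat at 96 h, in percent; numbers in brackets are tested members, lists are ordered by median log2 change, and dotted lines mark the shares over all genes, 2.54% and 2.29%. The lists of HIF targets (13 of 18) and glycolysis (17 of 26) extend farthest to the left and that of stress and ATF4 genes (14 of 25) farthest to the right.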

How the data were processed

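RNA-seq was analysed for the 4 epiLC libraries at 96 h, with the 4 shBcat libraries at 24 and 48 h in the same fit. The authors deposited TPM for this table. Per the submitters' processing notes, bcl2fastq 2.18, STAR, RSEM and Bowtie2 were used with mm10; for the other versions and the annotation the sources used here give nothing. The authors deposited FPKM for the V6.5 hairpin libraries in 2i, set beside without a test; 1 further column there was not used. From the deposited TPM, log2(TPM + 1) was computed, which understates changes of low genes. Genes at 1 TPM in 2 libraries were fitted with limma 3.58.1 (statmod 1.5.0, R 4.3.3; group term, variance trend, robust moderation; two-sided) and adjusted by Benjamini-Hochberg over all genes tested, threshold 0.05. The script was tested on simulated data. Tables were normalized separately, so tests were made only within 1 table. The members and gene lists were chosen with earlier results of these data known, so counts of a list are a description beside the share over all genes, with no test of the list. Named were Ctnnb1 and Jup, the 15 largest rises and 15 largest falls with a mean of 5 TPM (no overlap between groups; predicted genes, pseudogenes, ribosomal protein and small RNA genes left out), any member of the Wnt, pluripotency and streak lists, 5 members with the smallest p of each other list, and some fixed developmental genes. The 18 ChIP and input samples were not analysed here. Some genes that the naming rule picks are not reported here. Alternatives are given in the closing section.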

Additional observations from a re-analysis of the deposited data

Results flagged for a closer look

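In ES cells held in 2i, 14 of the changes seen at 96 h of epiLC had the other sign with shBcat, with no overlap between shBcat and shGFP libraries. The tables were normalized apart and differ in medium, line and time, so these differences between settings were not tested. Differences are of means of log2(value + 1). Of the 30 largest changes at 96 h, all 30 were measured in QKO ES cells, a name the labels do not spell out (3 shBcat and 3 shGFP libraries at 48 h), where 13 had the other sign and 9 the same sign without overlap. In V6.5 ES cells 28 were measured, of which 1 had the other sign and 9 the same, again without overlap. The share of all genes without overlap is not given for either setting, so these counts cannot be judged against it. Group sizes also differ between the settings, so their counts are not comparable.

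Several genes of oxygen response and glycolysis, lower with shBcat at 96 h of epiLC, were higher with shBcat in QKO ES cells. Bnip3 averaged 84.4 ± 20.6 TPM with shBcat and 42.2 ± 8.19 TPM with shGFP (SD, n = 3 each), a log2 difference of 0.97. Ldha averaged 783 ± 110 TPM with shBcat and 454 ± 79.5 TPM with shGFP, a log2 difference of 0.79. Further log2 differences there were 1.71 for Ndufa4l2, 1.09 for Egln3, 1.06 for Aldoc, 0.58 for Ndrg1 and 0.30 for Ankrd37. Fgf8, at 0.66 ± 0.13 TPM with shBcat and 0.417 ± 0.0451 TPM with shGFP, differed by 0.23 on the log2 scale.

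Nupr1, Ddit3, Atf5 and Cth, stress genes that rose at 96 h, were lower with shBcat in QKO ES cells. Nupr1 averaged 33.4 ± 0.836 TPM with shBcat and 85.0 ± 29.2 TPM with shGFP (SD, n = 3 each), a log2 difference of −1.27. The log2 difference was −1.01 for Ddit3, −0.56 for Atf5, −0.13 for Cth and −0.13 for the secreted glycoprotein gene Spp1. In V6.5 ES cells Zfp988 averaged 42.5 ± 0.99 FPKM with shBcat (n = 2) and 58.9 ± 16.0 FPKM with shGFP (n = 6), a log2 difference of −0.42.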

How the results depend on the processing

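The 122 called genes picked by the naming rule or as markers changed sign under no alternative run that tested them. Ctnnb1 kept its call in each run. For the other called genes the sign was not followed in every run. The count of 738 genes (350 rose, 388 fell) moved by over 1.5 times under some: 341 without the filter on low values (169 rose, 172 fell), where more genes were tested, 240 with the 96 h libraries alone (104 rose, 136 fell), where fewer libraries estimate the spread, and 44 with a minimum log2 change of 1 (16 rose, 28 fell). The 96 h libraries alone also leave out the shBcat pairs at 24 and 48 h, which lay closer together than the 96 h pairs. Adjusted p-values of the main limma fit may therefore be too small, and which part of the drop is due to either was not tested. Leaving out 1 library gave 279 to 453 genes, of which 155 to 219 rose and 124 to 274 fell. The count stayed within 1.5 times with a pseudocount of 0.1 (685), a minimum of 5 TPM (753), no variance trend (614) and median-of-ratios scaling (769), under which 54.2% of the called genes rose, against 47.4%. The labels share replicate numbers between groups without saying what a number marks. Same-numbered libraries of the 96 h groups deviated together with r = 0.28, and with 2 pairs this does not establish pairing; the fit with a replicate block called 771 genes (355 rose, 416 fell), 671 of them shared with the unblocked fit in the same direction. With 2 libraries a group and depth unknown, no counting error is given.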

Other observations

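Other gene groups were called at 96 h as follows. Of 11 tested surface ectoderm and neural crest genes 5 fell and 0 rose, against 2.54% of all genes that fell, with a median log2 change of −0.39. At an unadjusted p under 0.05, 8 were lower and 0 higher. The 5 were Krt19, Dlx3, Cdh1, Krt18 and Epcam, of which Cdh1 and Krt18 were also counted in lists above. Dlx3 was at 0.58 to 1.72 TPM. Sox9, Tfap2a and Ets1, named after their values were seen, were not called. Krt19, a keratin of simple epithelia, had 5.85 and 4.73 TPM in shBcat libraries, against 13.4 and 16.7 TPM in control libraries (log2 change −1.35, limma adjusted p = 0.00189). Krt18, its type I relative, had 47.2 and 47.4 TPM in shBcat libraries, against 64.0 and 64.7 TPM in control libraries. The count was 3 without control replicate 1, with the 96 h libraries alone or without the filter on low values.

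Of 13 mitochondrially encoded transcripts 6 rose and 0 fell, against 2.29% of all genes that rose, with a median log2 change of 0.36. Not all moved alike, as 2 members named after their values were seen show. The abundant mt-Co1 had 7801 and 7900 TPM in shBcat libraries, against 7919 and 8360 TPM in control libraries, and was not called. The shBcat libraries differed for mt-Co3, at 67.4 and 398 TPM, against 348 and 345 TPM in control libraries. The one for cytochrome b, mt-Cytb, had 7629 and 7590.0 TPM in shBcat libraries, against 5636 and 5609 TPM in control libraries (log2 change 0.44, limma adjusted p = 0.000574). Of 86 cytosolic ribosomal protein genes 0 were called by limma (2 at an unadjusted p under 0.05). On the X chromosome 8.3% of 530 tested genes were called (17 rose, 27 fell), against 4.82% of all genes.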
